A study of Mus musculus with 67 samples.

Results

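Activated conventional T cells (Tconv) sorted from the rest brain, which is the brain without the hypothalamus, were compared between Balb/c and C57Bl/6J mice by RNA sequencing. The libraries were chosen by their labels (rest brain, activated cells, second experiment), which gave 13 of the 67 libraries of the series and 13 of the 59 libraries of the second experiment. Balb/c gave 6 libraries, 3 from mice on standard diet (SD) and 3 from mice on a high-fat, high-sugar (HFHS) diet. C57Bl/6J gave 7 libraries, 4 on SD and 3 on the HFHS diet. All mice carried the Foxp3GFP reporter, in which cells with the Treg transcription factor Foxp3 are green, and by the study's methods the sorted cells were live, CD4 positive, CD25 negative, Foxp3GFP negative and gated as activated, with high CD44. Each library held cells pooled from 5 mice, so the spread within a group is a spread between pools. The labels of the Balb/c HFHS pools 15_21 and 16_20 would overlap if read as ranges of mouse numbers, and whether all pools held separate mice is not given in the sources used here. The diets began at 6 weeks of age, and their length in these mice is not given in the sources used here. By the methods, females were used of Balb/c and males of C57Bl/6J, so strain and sex cannot be told apart. Genes on chromosomes X and Y, Foxp3 among them, were therefore left out, and every difference below is called strain-associated.

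Conventional CD4 T cells see antigen through the T cell receptor, and those that have met it carry much CD44 and can enter tissues, where they release cytokines that steer resident cells. Inbred mouse strains carry different alleles at many immune loci, among them the H2 complex that encodes MHC molecules, the Ly6 cluster of small surface proteins and clusters of genes that interferons switch on. The reference transcripts are those of C57Bl/6J, and how far reads of Balb/c alleles were lost or shifted between related genes was not tested.

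The deposited estimated counts summed to 11340062 to 23554847 per Balb/c library (median 18445122) and to 17500109 to 28187003 per C57Bl/6J library (median 22463445). Levels are given in CPM, autosomal counts scaled for the depth of each library and by the trimmed mean of M values (TMM), as lowest to highest library with the median, and describe the same gene across libraries. Differences are log2 fold changes of Balb/c over C57Bl/6J with diet as a term, so that a negative value means lower in Balb/c, with the standard error (SE) and the adjusted p of edgeR's quasi-likelihood test over all genes tested. In bulk samples, fewer cells of a type and less RNA per cell cannot be told apart.

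The libraries carried the RNA of T cells. The 13 genes of the T cell identity list that are in the files and not on chromosome X summed to 11040 to 13070 CPM in Balb/c and 9178 to 12360 CPM in C57Bl/6J, with Cd3g the most abundant in 12 of 13 libraries and none at 0. Cd4, which encodes the coreceptor of the sort, was at 115 to 293 CPM (median 177) in Balb/c and 329 to 454 CPM (median 367) in C57Bl/6J. Its levels did not overlap between strains, and Cd4 was lower in Balb/c (-1.003 ± 0.18, adjusted p = 0.000393; with the offset for GC content and transcript length described below, -0.49, adjusted p = 0.0246). This difference is to be read beside the CD8 transcripts given below. Cd44, the other positive marker of the sort, did not pass the test and was at 164 to 249 CPM (median 175) in Balb/c and 128 to 293 CPM (median 175) in C57Bl/6J. The 12 genes of the Treg list, Foxp3 not being among them, summed to 912 to 1370 CPM in Balb/c and 1050 to 1369 CPM in C57Bl/6J, with Tnfrsf18, which activated T cells of other kinds use as well, the most abundant in 11 libraries. Nnt, which carries a deletion in C57Bl/6J mice, could have checked the strain labels but was at 0 CPM in Balb/c and at up to 2.47 CPM in C57Bl/6J, too low to do so.

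RNA of other cells was unequal between libraries. Cd8a and Cd8b1, the genes of the CD8 coreceptor that the gate was meant to leave out, summed to 347 to 507 CPM in the 6 Balb/c libraries. In C57Bl/6J they summed to 1.85 to 75.6 CPM in 6 libraries and to 745 CPM in the SD pool 01_05. In every Balb/c library this sum lay above Cd4 (115 to 293 CPM), as it did in the pool 01_05 (Cd4 at 329 CPM). In the other C57Bl/6J libraries it lay below Cd4. CPM are not scaled by transcript length, so this gives no ratio of cells. The name Tconv is that of the gate, and the share of CD4 T cells in each library was not tested. Cd8b1 passed the test (2.45 ± 0.73, adjusted p = 0.0187) and Cd8a did not (2.48 ± 0.99, adjusted p = 0.0755). The 13 microglia genes in the files summed to 937 CPM in the Balb/c SD pool 42_46, with none at 0 and P2ry12 at 280.5 CPM, and to 118 to 144 CPM in the other Balb/c and 66.5 to 138 CPM in the C57Bl/6J libraries. That pool also held 124 CPM of the 10 neuron genes, led by Syt1, against at most 16.1 CPM elsewhere, and 124 CPM of the 8 astrocyte genes, led by Apoe, against at most 24.2 CPM. The 7 B cell genes summed to 114 CPM in the C57Bl/6J SD pool 11_15 and to at most 18.2 CPM elsewhere. The 7 oligodendrocyte genes summed to 126 to 277 CPM in Balb/c and 198 to 431 CPM in C57Bl/6J, most of it from Cnp, while Mog, Mag and Mobp were at 0 in many libraries. The 8 endothelial genes summed to 458 to 651 CPM in Balb/c and 326 to 466 CPM in C57Bl/6J, with Bsg the most abundant in 12 libraries and Cldn5 or Cdh5 at 0 in 12. Without Ly6c1, a Ly6 gene described below, the sums were 257 to 381 CPM and 246 to 392.2 CPM and did not separate the strains. The 13 genes of macrophages, monocytes and neutrophils summed to 301.9 to 526.7 CPM in Balb/c and 133.1 to 302.2 CPM in C57Bl/6J. They were led by Ccr2, which T cells also carry. The 7 NK cell genes summed to 77.8 to 298 CPM in Balb/c and 21.2 to 166 CPM in C57Bl/6J. Klrb1c was the most abundant of them in 5 libraries and Fcer1g in 4. Members differed in direction. Ncr1 was at 3.93 to 98.8 CPM and Tyrobp at 10.9 to 54.4 CPM in Balb/c. In C57Bl/6J they were at 24.6 and 16.8 CPM in the pool 11_15 and at 18.6 and 19.5 CPM in 33_37. In the other C57Bl/6J pools they were at most 0.0765 and 1.12 CPM. Klrb1c ran the other way, at 0.372 to 16.6 CPM in Balb/c and 12.3 to 73.7 CPM in C57Bl/6J. Of 5 tested, 1 was higher and 1 lower in Balb/c, and without the pool 42_46 0 and 1. The 6 erythroid genes and the 3 genes of gamma-delta T cells summed to at most 3.37 and 23.6 CPM. Nearly all of the latter was Blk (23.4 CPM in the C57Bl/6J SD pool 11_15), which is also in the B cell list. The part of these other cells in the differences below was not tested beyond the counts given next.

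The strain-associated difference was broad. Of 10334 autosomal genes tested, 2711 (26.2%) passed an adjusted p of 0.05, 1378 higher (13.3%) and 1333 lower (12.9%) in Balb/c. The levels of 1373 genes (13.3%) did not overlap between the strains, and 1326 of these were among the genes called. Among the genes called, 1582 differed by more than 1 and 167 by more than 3 on the log2 scale. The median of all genes tested was -0.09. In a multidimensional scaling of the libraries, the dimension with the largest share of the spread (16.4%) put the 6 Balb/c libraries at 1.37 to 2.24 and the 7 C57Bl/6J libraries at -1.71 to -1.20. The next dimension (9.72%) set the C57Bl/6J SD pool 62_66, at -3.78, apart from all others. With library totals alone as scaling, the median of all genes was -0.33 and 951 of 2860 genes called (33.3%) were higher in Balb/c, against 50.8% with TMM.

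These counts moved with the libraries and with what the model held. Without the pools 42_46 and 01_05, 2772 genes were called, 2437 of them in common with the full set. The 7 SD libraries alone gave 782 genes, and the 6 HFHS libraries alone 2152. With the mean log2(CPM + 1) of Cd8a and Cd8b1 as a further term, 307 genes were called (78 higher, 229 lower). Of these, 306 were among the 2711 and all in the same direction. The summed CPM of these genes lie between 347 and 507 in every Balb/c library and under 75.7 in all but 1 C57Bl/6J library. The term thus nearly follows strain, and CD8 T cell RNA and strain cannot be told apart.

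Strain-associated differences also ran with the base composition and length of the transcripts. With genes ordered by GC content and divided into 5 groups of equal size, median log2 fold changes were 0.25, 0.05, -0.08, -0.34 and -0.59, from the lowest to the highest GC. Over 5 groups ordered by transcript length they were 0.47 in the shortest, -0.29, -0.36 and -0.24 in the next, and 0.01 in the longest. In hypothalamic activated Tconv, the same medians lay between -0.06 and 0.04, and in rest brain Tregs between -0.10 and 0.11. TMM factors were 0.816 to 1.03 in Balb/c and 1.04 to 1.19 in C57Bl/6J. An offset fitted to GC content and length in each library, chosen after seeing the data, brought the medians of the GC groups to between -0.18 and -0.11. With it, 1911 genes (18.5%) were called, 831 higher and 1080 lower. Of the 2711 genes, 1531 (56.5%) were called with the offset as well, 1484 of these in the same direction. Where the counts of a list described below changed with the offset, they are given beside the others, in the same order, and for genes the values with it are given in some cases. The source of the trend was not tested. Counts of list members below are to be read against the 26.2% of all genes called, 13.3% higher and 12.9% lower.

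**Figure D1:**
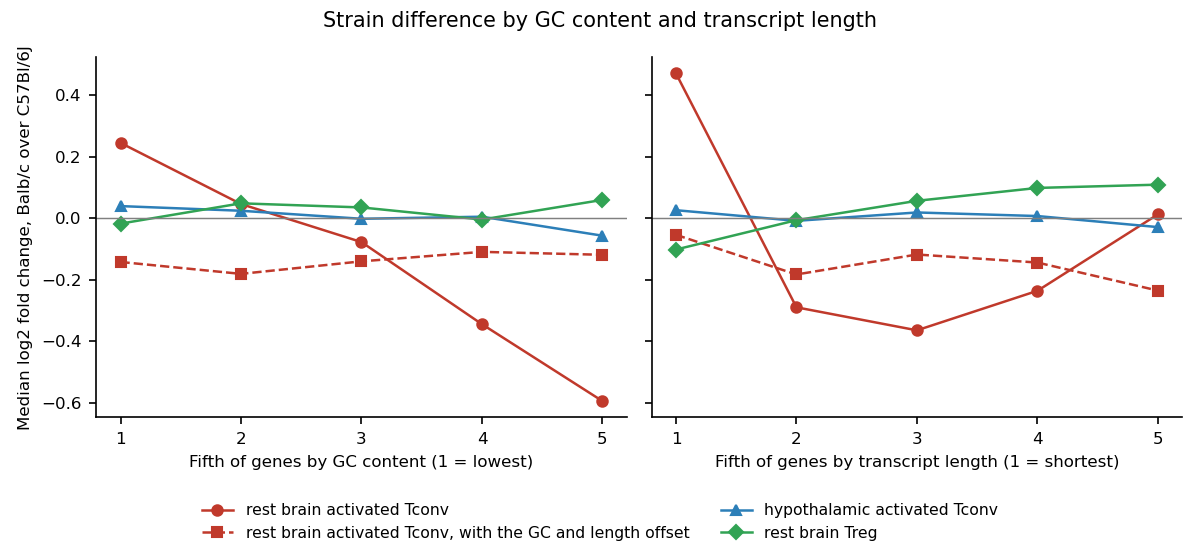
Median log2 fold change (Balb/c over C57Bl/6J) on the vertical axis over 5 equal groups of genes by GC content (left) or transcript length (right), for rest brain activated Tconv without and with the GC and length offset, hypothalamic activated Tconv and rest brain Tregs. The line of rest brain activated Tconv without the offset falls from 0.25 to -0.59 with GC content.

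The genes named next had the largest differences among called genes whose strains did not overlap and whose higher strain had a mean of at least 10 CPM. Many were nearly silent in 1 strain. Gbp2b, a guanylate-binding GTPase of the interferon response that C57Bl/6 mice are known to lack in inducible form, was at 38.96 to 129 CPM (median 89.1) in Balb/c and 0 to 0.0803 CPM (median 0) in C57Bl/6J. Every Balb/c library lay above every C57Bl/6J library, as the rule of choice required of all genes named here (11.38 ± 0.59, adjusted p = 7.07e-10). Ifi202b, a member of the Ifi200 family of DNA-binding proteins, was at 12.2 to 31.4 CPM (median 18.8) in Balb/c and 0 to 0.11 CPM (median 0) in C57Bl/6J. Its counts summed to 1777 in Balb/c and 3 in C57Bl/6J, a ratio of depth-scaled counts of 1044 with a 95% counting interval of 357 to 5067. Such an interval covers counting error alone, takes amplified reads as independent and leaves out the spread between pools. Among the other genes high in Balb/c, Scg5, which encodes a chaperone of the secretory pathway, was at 179 to 273 CPM (median 205) in Balb/c and 0 to 14.9 CPM (median 4.65) in C57Bl/6J (5.47 ± 0.60, adjusted p = 1.17e-05). Mtus1, a microtubule-associated protein, was at 11.4 to 26.4 CPM (median 20.4) in Balb/c and 0 to 3.42 CPM (median 0.385) in C57Bl/6J, and Bcl2l15, of the Bcl2 family, at 21.9 to 99.6 CPM (median 28.4) in Balb/c and 0 to 5.21 CPM (median 0.12) in C57Bl/6J. Atp6v0e2, a subunit of the vacuolar proton pump, was at 9.25 to 27.8 CPM (median 20.3) in Balb/c and 0 to 0.16 CPM (median 0.0349) in C57Bl/6J. The other genes of the 12 largest such increases were Lhfpl3, Pianp, Gm11127, Tmem181c-ps, Gm8979 and Gm4737. Read sharing makes several of these uncertain. Of the words of 31 bases in their transcripts, 95.6% in Gm4737, 91.7% in Gm8979, 81.3% in Tmem181c-ps and 73.1% in Gm11127 also occur in transcripts of other genes.

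Trim12a had the largest decrease in Balb/c of all genes tested. It lies at chr7:104299893-104315558 (GRCm38.p6), belongs to the Trim5 cluster of antiviral ubiquitin ligases, and was at 0 to 0.0696 CPM (median 0) in Balb/c and 139 to 246 CPM (median 180.5) in C57Bl/6J. The 6 Balb/c libraries held 1 count together against 29291 in C57Bl/6J, a ratio of 16620 with a counting interval of 2983 to 656400 that covers counting error alone as well. Trim30d, of the neighbouring Trim30 genes, was at 0 to 8.72 CPM (median 0.754) in Balb/c and 30.2 to 75.5 CPM (median 34.4) in C57Bl/6J (-4.87 ± 0.89, adjusted p = 0.00054). Coro2a, a coronin of the actin cytoskeleton, was at 0 to 2.45 CPM (median 0.241) in Balb/c and 54.9 to 118 CPM (median 73.8) in C57Bl/6J (-7.46 ± 0.76, adjusted p = 6.6e-06). Mmp9, the gelatinase that cells use to cross basement membranes, was at 0 to 1.4 CPM (median 0.244) in Balb/c and 32.02 to 127 CPM (median 71.8) in C57Bl/6J (-7.24 ± 0.75, adjusted p = 6.6e-06). No library of either strain overlapped the other for these genes, as the rule by which they were chosen required. Oasl2, of the interferon-induced oligoadenylate synthetase family, was at 0 to 1.03 CPM (median 0.149) in Balb/c and 17.5 to 103 CPM (median 54.6) in C57Bl/6J (-7.43 ± 0.87, adjusted p = 1.87e-05). Gm1966, an interferon-inducible GTPase-like gene with 37.8% of its words shared, was at 1.18 to 3.42 CPM (median 2.09) in Balb/c and 169 to 279 CPM (median 224) in C57Bl/6J. The other genes of the 12 largest such decreases were Gm4956, Acoxl, Baiap3, Prss12, Zfp775 and 2610507I01Rik, all under 50 CPM in every library. In the Trim5 and Trim30 list, 7 of 11 genes were tested, 3 were lower in Balb/c and none higher, and the third was Trim34a (-2.54 ± 0.29, adjusted p = 1.79e-05), which shares 48.7% of its words with other genes.

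**Figure D2:**
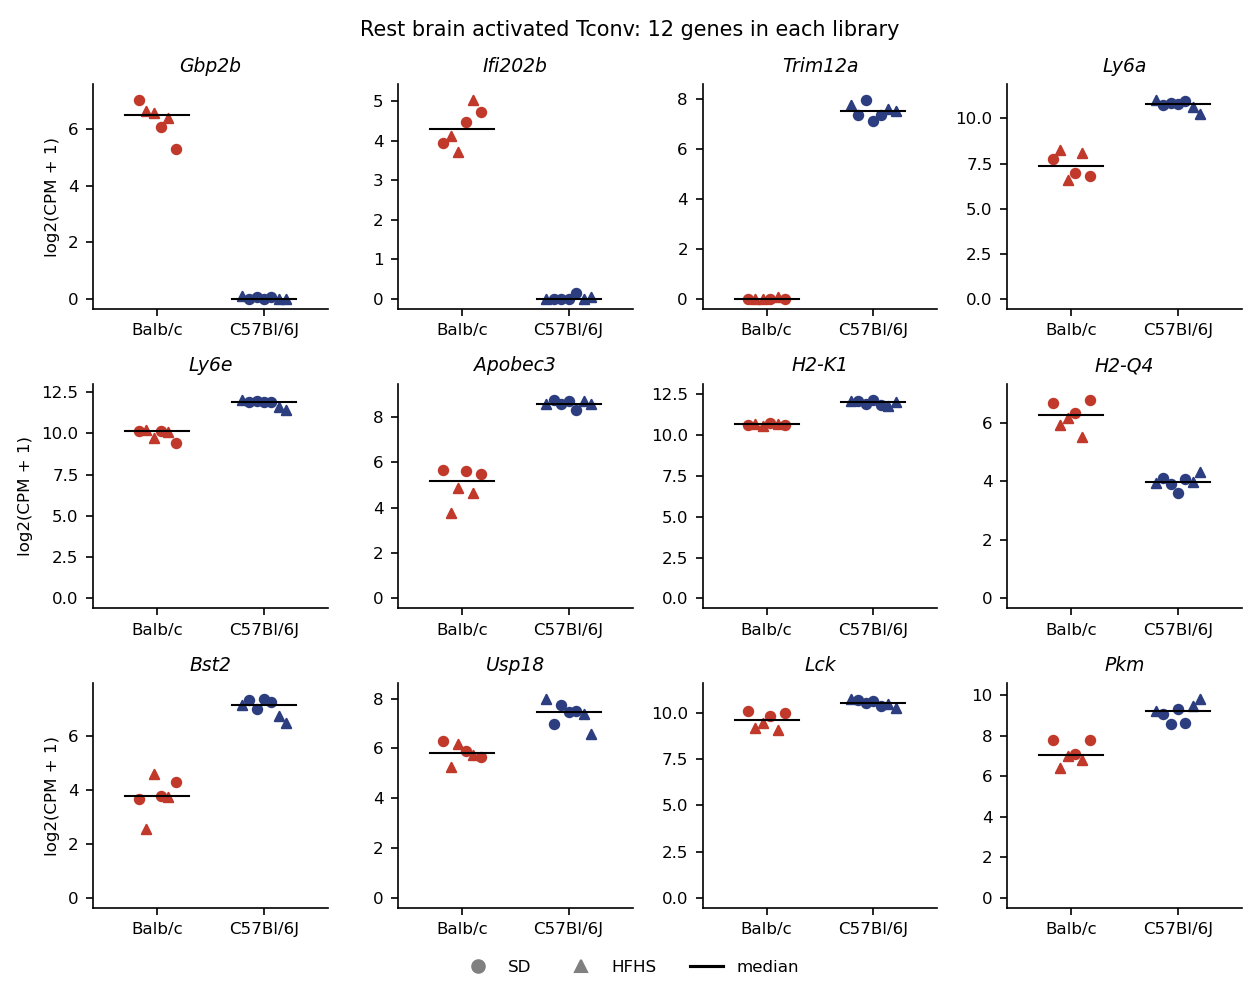
Level of 12 genes as log2(CPM + 1) in each of the 6 Balb/c and 7 C57Bl/6J libraries, with circles for SD, triangles for the HFHS diet and a line at the median of each strain. The strains do not overlap in any of the 12 genes. For Gbp2b, Ifi202b and Trim12a, which lie near 0 in 1 strain, the rule of choice required this.

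Classical and nonclassical MHC class I genes moved in both directions. Of 36 listed genes, 23 were in the files and 20 were tested, and 5 were higher and 7 lower in Balb/c (median -0.39; 4 higher and 6 lower with the offset). H2-K1, a classical class I molecule that shows peptides to CD8 T cells, was at 1504 to 1734 CPM (median 1607) in Balb/c and 3582 to 4569 CPM (median 4250) in C57Bl/6J. It was lower in Balb/c (-1.34 ± 0.10, adjusted p = 2.43e-07), with 22.8% of its words shared. H2-Q9 and H2-Q7 encode forms of the nonclassical molecule Qa-2. H2-Q9 was at 211 to 368 CPM (median 266) in Balb/c and 924 to 1144 CPM (median 1007) in C57Bl/6J (-1.93 ± 0.12, adjusted p = 1.57e-08), and H2-Q7 at 155 to 192 CPM (median 172) in Balb/c and 366 to 589 CPM (median 486) in C57Bl/6J (-1.46 ± 0.13, adjusted p = 1.87e-06). H2-Q4 ran the other way, at 44.6 to 109 CPM (median 74.9) in Balb/c and 10.98 to 19.03 CPM (median 14.8) in C57Bl/6J (2.34 ± 0.26, adjusted p = 1.17e-05). H2-Q1 and H2-Q2 were higher in Balb/c as well, at medians of 11.7 and 8.03 CPM against 0.542 and 0.157 CPM. Between 22.8% and 39.1% of the words of H2-K1, H2-Q1, H2-Q2, H2-Q4 and H2-Q7 occur in other genes, so the division of reads among H2 genes of Balb/c haplotype is uncertain.

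The genes that supply MHC class I with peptides divided evenly. All 14 were tested, 6 were higher and 6 lower in Balb/c (median -0.22; 5 and 5 with the offset). The peptide transporter genes Tap1 (-1.17 ± 0.18, adjusted p = 0.000141) and Tap2 (-1.57 ± 0.22, adjusted p = 9.26e-05) and the loading factor Tapbp (-1.33 ± 0.23, adjusted p = 0.000323) were lower. With the offset, Tap1 (-0.42, adjusted p = 0.0337) and Tap2 (-0.71, adjusted p = 0.0147) kept their call and Tapbp lost it (-0.49, adjusted p = 0.0633). Higher in Balb/c were Psmb9, an immunoproteasome subunit, at 406 to 550.4 CPM (median 497) in Balb/c and 238 to 335 CPM (median 317) in C57Bl/6J (0.69 ± 0.12, adjusted p = 0.000301), and the chaperone Canx, at 299 to 722 CPM (median 505) in Balb/c and 168 to 252 CPM (median 226) in C57Bl/6J (1.16 ± 0.17, adjusted p = 9.54e-05). B2m, the light chain of every class I molecule, was at 20980 to 44450 CPM (median 29710) in Balb/c and 10340 to 19520 CPM (median 14960) in C57Bl/6J. Its direction turned with the offset, from 0.99 ± 0.18, adjusted p = 0.000554 to -0.72, adjusted p = 1.41e-05. Psme2, a proteasome activator subunit, was higher (0.85 ± 0.15, adjusted p = 0.000329) but not past the threshold with the offset (0.23, adjusted p = 0.0939). Psme2 shares 33.5% of its words with other genes.

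The Ly6 genes differed strongly. Of 24 listed genes, 21 were in the files and 6 were tested, and 3 were lower and 1 higher in Balb/c (median -0.94; -0.92 with the offset). Ly6a, which encodes Sca-1 and is known to be low on lymphocytes of strains with the Balb/c allele, was at 95.6 to 308 CPM (median 171) in Balb/c and 1195 to 2045 CPM (median 1799) in C57Bl/6J (-3.23 ± 0.27, adjusted p = 6.21e-07). Ly6e was at 684 to 1155 CPM (median 1109) in Balb/c and 2773 to 4176 CPM (median 3809) in C57Bl/6J (-1.85 ± 0.15, adjusted p = 3.31e-07). Ly6c2 was at 165 to 474 CPM (median 282) in Balb/c and 667 to 1374 CPM (median 899) in C57Bl/6J (-1.69 ± 0.24, adjusted p = 7.84e-05), whereas Ly6c1, which is also an endothelial marker, was at 116 to 330.4 CPM (median 206) in Balb/c and 32.5 to 81.5 CPM (median 52.5) in C57Bl/6J (1.94 ± 0.26, adjusted p = 6.03e-05). Ly6a, Ly6c1 and Ly6c2 share 31.9%, 46.8% and 23.7% of their words with other genes, mostly with each other, so a shift of reads among them cannot be told apart from their levels.

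In the Ifi200 (PYHIN) family, which senses DNA, 10 of 18 genes were tested, 1 was higher and 2 lower in Balb/c (median 0.21; 1 and 4 with the offset, median -0.15), a share of calls near the 26.2% of all genes without the offset and well above their 18.5% with it. Beside Ifi202b, these were Ifi213, at 8.21 to 12.3 CPM (median 9.83) in Balb/c and 96.98 to 189 CPM (median 144) in C57Bl/6J (-3.76 ± 0.21, adjusted p = 1.76e-09), and Ifi208, at 152 to 195 CPM (median 165) in Balb/c and 312 to 473 CPM (median 418) in C57Bl/6J (-1.30 ± 0.13, adjusted p = 4.68e-06). The 2 share up to 33.99% of their words with other genes. Apobec3, a cytidine deaminase that restricts retroviruses, was at 12.5 to 50.02 CPM (median 35.98) in Balb/c and 315 to 433 CPM (median 386) in C57Bl/6J (-3.56 ± 0.24, adjusted p = 3.38e-08). Among the 11 genes of the retroviral restriction list, all tested, 3 were lower in Balb/c and none higher (4 lower and none higher with the offset), again a share near that of all genes without the offset and above it with the offset.

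Most of the interferon-stimulated genes called were lower in Balb/c. Of 49 listed genes, 45 were tested, 20 were lower and 4 higher, with a median of -0.76 against -0.09 for all genes. With the offset, 22 were lower and 3 higher (median -0.73), and without the pool 42_46, 19 and 6 (median -0.54). Bst2, the tetherin that holds budding virus at the membrane, was at 4.9 to 23.3 CPM (median 12.6) in Balb/c and 89.2 to 164 CPM (median 143) in C57Bl/6J (-3.24 ± 0.30, adjusted p = 2.41e-06). Epsti1, an interferon-induced gene of lymphocytes and macrophages, was at 81.8 to 149.7 CPM (median 91.4) in Balb/c and 244 to 495 CPM (median 326) in C57Bl/6J (-1.86 ± 0.21, adjusted p = 1.24e-05). Usp18, the protease that removes ISG15 and restrains the interferon receptor, was at 37.1 to 77.1 CPM (median 55.9) in Balb/c and 95.4 to 250 CPM (median 176) in C57Bl/6J (-1.57 ± 0.23, adjusted p = 0.000108). None of these 3 overlapped between the strains. Ifi44 went the other way, at 57.5 to 100.2 CPM (median 82.5) in Balb/c and 15.6 to 38.1 CPM (median 34.04) in C57Bl/6J (1.36 ± 0.27, adjusted p = 0.00105). Among 22 guanylate-binding proteins and related GTPases, 17 were tested, 1 (Gbp2b) was higher and 3 were lower, a share of calls under the 26.2% over all genes tested. Gbp6 (-1.52 ± 0.26, adjusted p = 0.000313) and Gbp9 (-1.13 ± 0.22, adjusted p = 0.000937) were among the lower genes. With the offset 1 was higher and 5 were lower, and without the pool 42_46, 3 and 3, in both cases a larger share than that of all genes in the same fit. Gbp6 shares 74.2% of its words with other genes.

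Promoters are shown for interferon-stimulated genes because most of those called moved together. The RefSeq promoters (GRCm38.p6, 250 bases before to 50 after the start) are of the reference strain, and 33 of the 45 genes tested had one in the table used. The letters GAAANNGAA, the repeated core that interferon regulatory factors bind, were sought on both strands, where they read TTCNNTTTC on the other, and sites may overlap. They were found in 20 of the 33 promoters (60.6%), in 10 of the 16 of genes lower in Balb/c (62.5%) and in 7.32% of the promoters of 8343 genes tested. Bst2 holds overlapping sites at chr8:71537423-71537722 (minus strand), Ifi44 a single site at chr3:151749861-151750160 (minus strand), and Epsti1 none at chr14:77903989-77904288 (plus strand). Capitals mark the match.
Bst2: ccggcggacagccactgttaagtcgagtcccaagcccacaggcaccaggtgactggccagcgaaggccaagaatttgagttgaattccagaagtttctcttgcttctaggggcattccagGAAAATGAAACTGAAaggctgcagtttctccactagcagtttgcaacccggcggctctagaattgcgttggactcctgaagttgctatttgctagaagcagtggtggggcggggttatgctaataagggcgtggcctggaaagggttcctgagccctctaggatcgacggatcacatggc
Ifi44: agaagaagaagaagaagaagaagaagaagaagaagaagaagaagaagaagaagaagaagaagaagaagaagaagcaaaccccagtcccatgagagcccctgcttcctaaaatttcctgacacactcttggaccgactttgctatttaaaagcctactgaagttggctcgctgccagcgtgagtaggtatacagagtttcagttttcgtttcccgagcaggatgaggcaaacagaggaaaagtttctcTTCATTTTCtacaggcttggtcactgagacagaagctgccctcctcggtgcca
Epsti1: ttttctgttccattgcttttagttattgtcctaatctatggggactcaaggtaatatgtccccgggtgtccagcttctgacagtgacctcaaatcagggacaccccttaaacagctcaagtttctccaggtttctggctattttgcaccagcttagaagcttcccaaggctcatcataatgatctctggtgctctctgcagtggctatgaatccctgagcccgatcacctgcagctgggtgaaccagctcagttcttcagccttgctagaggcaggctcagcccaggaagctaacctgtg
Bst2 and Ifi44 thus share the letters while moving in opposite directions, and a match is a description of these windows.

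T cell receptor signalling genes were mostly lower in Balb/c. All 36 genes of the list were tested, 19 were lower and 2 higher (median -0.69), and with the offset these counts were 19 and 2 (median -0.48). Zap70, the kinase that docks on the receptor chains, was at 36.7 to 99.7 CPM (median 65.4) in Balb/c and 138 to 217 CPM (median 178) in C57Bl/6J (-1.44 ± 0.20, adjusted p = 6.54e-05). Lck, the kinase bound to CD4, was at 545 to 1117 CPM (median 801) in Balb/c and 1235 to 1714 CPM (median 1496) in C57Bl/6J (-0.91 ± 0.14, adjusted p = 0.000186). Vav1, the exchange factor that links the receptor to actin, was at 32.7 to 57.6 CPM (median 44.1) in Balb/c and 93.6 to 197 CPM (median 174) in C57Bl/6J (-1.85 ± 0.22, adjusted p = 2.44e-05). The strains did not overlap in any of the 3. Nfatc1, a calcium-dependent transcription factor, was also lower (-1.10 ± 0.15, adjusted p = 5.8e-05), as were the surface receptor Cd6 (-1.88 ± 0.21, adjusted p = 1.17e-05) and the phosphatase-like inhibitor Ubash3a (-1.31 ± 0.16, adjusted p = 2.44e-05). Cd5, which dampens receptor signals, was lower (-0.89 ± 0.17, adjusted p = 0.000903) but not with the offset (-0.09, adjusted p = 0.721). Of the CD3 chains, Cd3g was higher, at 3009 to 4931 CPM (median 3808) in Balb/c and 1616 to 2779 CPM (median 2475) in C57Bl/6J (0.72 ± 0.16, adjusted p = 0.00207). Cd3d was called higher as well, at 1138 to 2029 CPM in Balb/c and 718.5 to 1281 CPM in C57Bl/6J. Cd3e did not pass the test (-0.20 ± 0.11, adjusted p = 0.197).

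AP-1, immediate early and heat shock genes, which stimulation or tissue handling switches on within minutes, had 27 of 28 genes tested, 8 lower and 1 higher in Balb/c (median -0.57). With the offset 6 were lower and 1 higher (median -0.24). Fos was at 299.5 to 944 CPM (median 667) in Balb/c and 1444 to 2643 CPM (median 1912) in C57Bl/6J (-1.65 ± 0.21, adjusted p = 3.69e-05), and its partner Jun at 7.37 to 21.4 CPM (median 11.96) in Balb/c and 44 to 161 CPM (median 79.5) in C57Bl/6J (-2.74 ± 0.37, adjusted p = 5.91e-05). Junb was at 132 to 512 CPM (median 188) in Balb/c and 827 to 1144 CPM (median 1013) in C57Bl/6J (-2.02 ± 0.26, adjusted p = 3.94e-05). Dusp1, a phosphatase that stops MAP kinases, was at 153 to 570.2 CPM (median 333) in Balb/c and 906 to 1901 CPM (median 1290) in C57Bl/6J (-1.88 ± 0.22, adjusted p = 1.82e-05). All 4 kept their call and direction with the offset.

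Cytokine and receptor genes moved in both directions. Of 23 cytokine genes, 15 were tested, 5 were higher and 2 lower in Balb/c (median 0.43), and with the offset 2 and 2 (median -0.31). Ltb, a membrane-bound member of the TNF family, was at 1289 to 1743 CPM (median 1452) in Balb/c and 653 to 1159 CPM (median 765) in C57Bl/6J (0.87 ± 0.14, adjusted p = 0.000173). Mif was higher too (0.96 ± 0.15, adjusted p = 0.000135), while Tgfb1 (-1.30 ± 0.28, adjusted p = 0.00197) and Il16 (-0.97 ± 0.20, adjusted p = 0.00121) were lower. Mif shares 39.1% of its words with other genes. Il2, the growth factor of T cells, was at 117 to 437 CPM (median 189) in Balb/c and 37.8 to 102 CPM (median 56.95) in C57Bl/6J (1.67 ± 0.27, adjusted p = 0.000211), but it did not pass with the offset (0.33, adjusted p = 0.241). Il4, the hallmark cytokine of Th2 cells, was at 12.1 to 104 CPM (median 54.9) in Balb/c and 8.19 to 19.9 CPM (median 11.8) in C57Bl/6J (1.999 ± 0.46, adjusted p = 0.00346). Its direction turned with the offset (-0.18, adjusted p = 0.825), which did not pass the threshold. The Th2 list had 11 of 19 genes tested, 2 higher and 2 lower (1 and 2 with the offset). Maf, a transcription factor that drives Il4 and Il21, was higher at 251 to 597 CPM (median 378) in Balb/c and 109 to 189.7 CPM (median 149) in C57Bl/6J (1.36 ± 0.20, adjusted p = 0.000108). Il4ra, the receptor chain for IL-4, was lower at 1.56 to 14.3 CPM (median 8.08) in Balb/c and 23.4 to 53.8 CPM (median 41.6) in C57Bl/6J (-2.28 ± 0.44, adjusted p = 0.000916), as was Stat6, which carries its signal (-1.65 ± 0.26, adjusted p = 0.000187).

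Genes of the IL-2 receptor and STAT5 axis divided into 5 higher and 5 lower of 15 tested (4 and 2 with the offset). Il2rb, the chain shared by the IL-2 and IL-15 receptors, was at 76.2 to 332 CPM (median 143) in Balb/c and 518 to 735 CPM (median 634) in C57Bl/6J (-1.93 ± 0.26, adjusted p = 6.07e-05). Genes that STAT5 induces went both ways. Pim1, a survival kinase, was higher, at 37.7 to 90.1 CPM (median 60.7) in Balb/c and 6.69 to 17.9 CPM (median 8.82) in C57Bl/6J (2.46 ± 0.34, adjusted p = 7.45e-05), and so was Socs2, a feedback inhibitor, at 248 to 591 CPM (median 448) in Balb/c and 119.8 to 217 CPM (median 149) in C57Bl/6J (1.48 ± 0.20, adjusted p = 5.78e-05). Cish, a feedback inhibitor as well, was lower, at 72.4 to 217 CPM (median 147) in Balb/c and 166 to 280.5 CPM (median 238) in C57Bl/6J (-0.66 ± 0.18, adjusted p = 0.0124), and so was Socs3, at 7.09 to 89.7 CPM (median 17.2) in Balb/c and 47.7 to 123 CPM (median 75.2) in C57Bl/6J (-1.53 ± 0.42, adjusted p = 0.0116). Both overlapped between the strains, and neither passed with the offset (-0.23, adjusted p = 0.394 and -0.75, adjusted p = 0.175). Il7r, the receptor chain for the survival cytokine IL-7, was higher (0.75 ± 0.15, adjusted p = 0.00136). Il21r, from the list of Th17 genes, was lower at 5.42 to 30.7 CPM (median 18.9) in Balb/c and 69.8 to 168 CPM (median 117) in C57Bl/6J (-2.70 ± 0.38, adjusted p = 7.97e-05).

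Among 28 Th1 and cytotoxic genes, 27 were tested, 8 were lower and 3 higher in Balb/c (median -0.47), and with the offset 10 and 1 (median -0.73). Bhlhe40, a regulator of cytokine output, was at 84.1 to 205 CPM (median 92.3) in Balb/c and 252 to 389.5 CPM (median 358) in C57Bl/6J (-1.43 ± 0.23, adjusted p = 0.000232). Il12rb1, a chain of the IL-12 receptor, was lower (-3.59 ± 0.75, adjusted p = 0.00169). Ccl5, a chemokine of effector cells, was higher at 1903 to 4115 CPM (median 2859) in Balb/c and 436 to 2604 CPM (median 1346) in C57Bl/6J (1.09 ± 0.30, adjusted p = 0.0116), but not with the offset (0.16, adjusted p = 0.673). The other genes called higher were Gzmm and Ifng. Ifng was at 430.7 to 1373 CPM in Balb/c and 282.6 to 651.5 CPM in C57Bl/6J, so the strains overlapped. Of 14 checkpoint receptors, 13 were tested, 5 were lower and none higher (median -0.83; 6 lower with the offset). Pdcd1, the gene of PD-1, was at 0 to 32.9 CPM (median 13.7) in Balb/c and 54.1 to 164 CPM (median 121) in C57Bl/6J (-3.16 ± 0.70, adjusted p = 0.00244). Tigit (-1.81 ± 0.43, adjusted p = 0.00409) and Tox, a transcription factor of chronically stimulated T cells (-1.22 ± 0.19, adjusted p = 0.000178), were lower as well. The CD8 transcripts moved with the strain in these libraries, and their part in the cytotoxic list was not tested.

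Genes of residence, adhesion and NK-type receptors were lower where called in most cases. Of 14 residency genes, 13 were tested, and 4 were lower and none higher, a share of calls near the 26.2% over all genes tested. With the offset the counts were the same, against 18.5% of all genes. Their median was -0.52, and it was -0.80 with the offset and -0.24 without the pool 42_46 (3 lower). Cxcr6, a chemokine receptor of tissue T cells, was at 1636 to 2119 CPM (median 1878) in Balb/c and 2059 to 3328 CPM (median 2719) in C57Bl/6J (-0.55 ± 0.12, adjusted p = 0.0021). In the adhesion list, 19 of 23 genes were tested, 5 were lower and 3 higher (median -0.11; 5 lower and none higher with the offset). Itgb2, the beta chain of LFA-1, was at 196 to 275 CPM (median 234) in Balb/c and 487 to 861 CPM (median 561) in C57Bl/6J (-1.40 ± 0.16, adjusted p = 1.24e-05), and its ligand Icam1 at 16.1 to 47.1 CPM (median 25.2) in Balb/c and 65.5 to 107 CPM (median 83.8) in C57Bl/6J (-1.62 ± 0.26, adjusted p = 0.00018). Selplg, the selectin ligand, was lower too (-0.87 ± 0.15, adjusted p = 0.000315). Itga4, a chain of the integrin through which T cells enter the brain, was higher (0.62 ± 0.17, adjusted p = 0.0115), but not with the offset (0.07, adjusted p = 0.821). Of 31 NK complex receptors, 14 were tested, 4 were lower and 1 higher (5 lower and none higher with the offset), with Klrk1, the gene of NKG2D, at 28.7 to 141 CPM (median 73.3) in Balb/c and 115 to 343 CPM (median 199) in C57Bl/6J (-1.57 ± 0.35, adjusted p = 0.00266). Klrc1, of the NKG2A receptor, was lower (-1.41 ± 0.30, adjusted p = 0.00201), with 53.1% of its words shared. The NK cell genes given above summed to 77.8 to 298 CPM in Balb/c and 21.2 to 166 CPM in C57Bl/6J. The part of NK cell RNA in these receptors was not tested. In the chemokine receptor list, 15 of 19 were tested, 3 were lower and 1, Ccr2, was higher (0.66 ± 0.19, adjusted p = 0.0136), which was lost with the offset (0.21, adjusted p = 0.485). That is a share of calls near the 26.2% of all genes. The median of this list was 0.30, and -0.18 with the offset. Without the pool 42_46, 2 of its genes were higher and 1 lower (median -0.58), so the balance turned without that library.

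The glycolysis genes called were all lower in Balb/c. Of 18, 17 were tested, 10 were lower and none higher (median -0.97), and with the offset 7 were lower (median -0.67). Pkm, which makes pyruvate in the last step, was at 84.8 to 220.3 CPM (median 133) in Balb/c and 385 to 896 CPM (median 601) in C57Bl/6J (-1.999 ± 0.25, adjusted p = 3.82e-05; -1.31, adjusted p = 8.49e-05 with the offset). Gpi1, which acts near the start of the pathway, was at 55.4 to 145 CPM (median 88.96) in Balb/c and 224 to 329.8 CPM (median 295) in C57Bl/6J (-1.62 ± 0.19, adjusted p = 2.44e-05), and Eno1, which acts just before Pkm, at 295 to 614 CPM (median 389.6) in Balb/c and 823 to 979 CPM (median 919) in C57Bl/6J (-1.10 ± 0.16, adjusted p = 9.22e-05). The strains did not overlap in these 3 genes. Gapdh, often used as a reference gene, was lower (-0.59 ± 0.12, adjusted p = 0.00133) but not with the offset (-0.02, adjusted p = 0.892). Pkm, Eno1 and Gapdh share 34.7%, 28.5% and 27.2% of their words with other genes.

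The nuclear genes of the respiratory chain and ATP synthase were higher for the most part. The list was taken by gene symbol, so it also holds the complex I assembly factors Ndufaf1 to Ndufaf8 and holds no Cox4 gene. Of 88 genes, 82 were tested, 64 were higher and 6 lower in Balb/c (median 1.005). With the offset 30 were higher and 11 lower (median 0.24). Uqcr10, a small subunit of complex III, was at 333 to 714 CPM (median 479.9) in Balb/c and 124 to 204 CPM (median 151) in C57Bl/6J (1.59 ± 0.20, adjusted p = 3.94e-05; 0.36, adjusted p = 0.0294 with the offset). Ndufa12, of complex I, was higher as well (1.45 ± 0.21, adjusted p = 0.000108). The larger subunits Atp5b, at 328 to 603 CPM (median 475) in Balb/c and 902 to 1175 CPM (median 1005) in C57Bl/6J (-1.11 ± 0.13, adjusted p = 2.12e-05), and Sdha (-1.20 ± 0.19, adjusted p = 0.000186) were lower. Both directions held in these 4 genes with the offset.

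Cytosolic ribosomal protein genes, most of them short, were higher as a group. Of 78 genes, 75 were tested, 67 were higher and 2 lower (median 1.05), and with the offset 42 and 5 (median 0.47). Rps28 was at 285 to 608 CPM (median 456) in Balb/c and 111 to 188 CPM (median 158) in C57Bl/6J (1.57 ± 0.20, adjusted p = 3.89e-05). Rplp1, of the ribosomal stalk, was higher (1.30 ± 0.17, adjusted p = 5.68e-05; 0.33, adjusted p = 0.0166 with the offset). The 2 lower genes were Rpl3 (-0.42 ± 0.11, adjusted p = 0.00944) and Rpl29. Rpl29 was at 87.2 to 165 CPM (median 138) in Balb/c and 206 to 316 CPM (median 278) in C57Bl/6J (-1.11 ± 0.17, adjusted p = 0.000173). The reads of several are uncertain, as 75.05% of the words of Rplp1, 44.5% of those of Rpl29 and 37.5% of those of Rpl3 occur in other genes.

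Counts of proliferation genes are given against the 26.2% of all genes called, or 18.5% with the offset. A difference from other genes was not tested. Of 41 S phase genes, 39 were tested, 7 were higher and 3 lower (median 0.34; 6 and 2 with the offset, median -0.01), a share of calls near that of all genes. Gmnn, which blocks a second round of replication licensing, was at 62.8 to 159 CPM (median 105) in Balb/c and 27.3 to 45.2 CPM (median 38.1) in C57Bl/6J (1.52 ± 0.22, adjusted p = 0.000108). Mcm6, of the replicative helicase, was lower at 24.4 to 76.8 CPM (median 50.5) in Balb/c and 96.4 to 213 CPM (median 138) in C57Bl/6J (-1.48 ± 0.29, adjusted p = 0.000968). Of 52 genes of the G2 and M phases, 46 were tested and 4 were higher, a smaller share (median -0.01; 1 higher and 1 lower with the offset). The chromatin protein Hmgb2, of this list, was at 1621 to 2727 CPM (median 2067) in Balb/c and 868 to 1427 CPM (median 925) in C57Bl/6J (0.99 ± 0.15, adjusted p = 0.000139). Of 22 genes around the leptin receptor and mTOR, 21 were tested, 5 were higher and 5 lower (4 and 1 with the offset). Leptin reports fat stores to the brain and to T cells, and Leprotl1, which limits receptors of its family at the surface, was at 596 to 754 CPM (median 655) in Balb/c and 378 to 503 CPM (median 454) in C57Bl/6J (0.57 ± 0.12, adjusted p = 0.00153). Rheb, the GTPase that activates mTORC1, was at 228 to 464 CPM (median 340.1) in Balb/c and 134 to 196 CPM (median 166) in C57Bl/6J (1.02 ± 0.16, adjusted p = 0.000189). Of the fatty acid genes, Fabp5, a carrier of fatty acids in the cytosol, was higher at 41.2 to 98.1 CPM (median 67.4) in Balb/c and 17.5 to 28.3 CPM (median 22.3) in C57Bl/6J (1.57 ± 0.25, adjusted p = 0.000186). The fatty acid oxidation list had 2 higher and 3 lower of 18 tested (1 and 4 with the offset), and the cholesterol and fatty acid synthesis list 3 lower of 19 (2 with the offset).

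**Figure D3:**
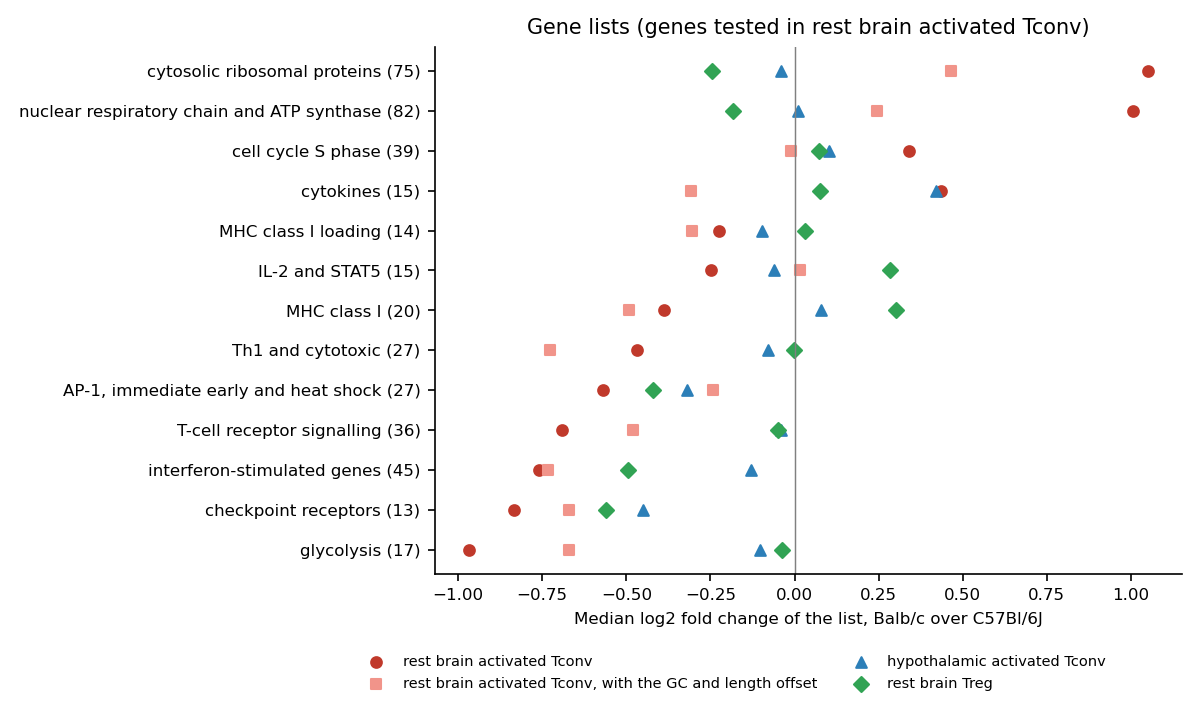
Median log2 fold change (Balb/c over C57Bl/6J) of 13 gene lists on the horizontal axis, with the number of genes tested in brackets, for rest brain activated Tconv without and with the GC and length offset, hypothalamic activated Tconv and rest brain Tregs. The medians of ribosomal protein and respiratory chain genes are 1.05 and 1.005 without and 0.47 and 0.24 with the offset.

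Other lists, most of them short, had the following calls, against 26.2% of all genes tested and 18.5% with the offset. Of 13 naive and egress genes tested, 1 was higher and 1 lower (2 and 0 with the offset), and of 8 tested Th17 genes 1 was lower (2 with the offset). Of 10 Tfh genes tested, 1 was higher and 3 lower (median -1.56; 0 and 2 with the offset). Of 21 genes of costimulation and the TNF superfamily tested, 4 were higher and 4 lower (median 0.15; 1 and 2 with the offset, median -0.09). Of 8 chemokine genes 1 was higher and 1 lower (median 0.77), and with the offset 0 and 2 (median -0.18). Without the pool 42_46, 1 chemokine gene was higher and 0 lower (median 0.89). Of 7 SLAM family genes tested, 2 were higher (0 and 1 with the offset), and of 6 MHC class II genes 1. Of 7 Schlafen genes, 3 were lower (4 with the offset). Of 10 genes of ADP-ribosyltransferases and purinergic signalling, 5 were lower and none higher (median -1.22; 4 lower with the offset). Entpd1 and Cd38, enzymes of this last list that consume nucleotides outside the cell, were among them. Their values were -0.97 ± 0.26, adjusted p = 0.00877 for Entpd1 and -1.05 ± 0.27, adjusted p = 0.00772 for Cd38. Of 20 Toll-like receptor and IL-1 genes tested, 5 were lower and 1 higher (3 lower and none higher with the offset). Nlrc3, an inhibitor of innate signalling in that list, was at 2.29 to 9.95 CPM (median 6.68) in Balb/c and 38.5 to 54.6 CPM (median 42.6) in C57Bl/6J (-2.97 ± 0.37, adjusted p = 3.69e-05).

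Called genes lay on all 19 autosomes, with 21.8% of the genes tested on chromosome 18 and 30.1% on chromosome 17 called at the extremes. Runs of at least 3 called genes in a row among tested genes numbered 162 and held 539 genes, and in 41 of the runs all genes went the same way. With 26.2% of all genes called, 13.3% higher and 12.9% lower, many such runs arise without any grouping along chromosomes. How many was not tested, so these counts show no grouping of called genes. The 3 longest runs had 6 genes. On chromosome 7 (chr7:126428423-126585817), Rabep2, Sh2b1, Tufm, Atxn2l, Eif3c and Cln3 were all lower, with values from -1.60 in Rabep2 to -0.81 in Tufm. Of these, only Eif3c kept its call with the offset (-0.76, adjusted p = 0.0109). Tufm shares 58.2% of its words with other genes. On chromosome 17 (chr17:34112019-34216321), inside the H2 complex, Brd2 (not called with the offset), Tap1 and Tap2 were lower and H2-DMa, Psmb9 and Psmb8 higher. On chromosome 10 (chr10:80172944-80320548), 3 genes were higher and 3 lower. Among shorter runs, on chromosome 1, Ncstn, Copa, Pex19 and Dcaf8 were lower and Slamf6, a SLAM receptor at the same run's edge, higher (0.95 ± 0.26, adjusted p = 0.0108; 0.69, adjusted p = 0.094 with the offset). H2-Q8 and H2-Q9 were left out of the runs because the table places them outside the sequenced part of chromosome 17.

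Diet changed the strain-associated difference of 151 genes (1.46% of 10334 tested; 127 with a higher Balb/c difference on the HFHS diet). This count fell to 16 with the offset, to 40 with a filter on total counts, and rose to 592 in DESeq2. The GC trend moved with diet as well. In Balb/c, the genes of the highest GC group lay at median deviations from the mean of all libraries of -0.46 to -0.31 on the HFHS diet and -0.12 to 0.11 on SD (log2), with TMM factors of 0.816 to 0.875 and 0.966 to 1.03. In C57Bl/6J these medians were 0.30 to 0.65 and 0.24 to 0.40. With the offset, 13 of the 151 genes kept their call, and none of the genes described next did. Pdcd4, an inhibitor of translation, was at 280, 303 and 294 CPM in the 3 Balb/c SD and at 582.5, 587 and 548 CPM in the 3 Balb/c HFHS libraries. In C57Bl/6J it was at 239 to 285 CPM on SD and 194 to 238 CPM on the HFHS diet (interaction 1.255, adjusted p = 0.0345; with the offset 0.94, adjusted p = 0.0556). Cd52, a small surface glycoprotein of lymphocytes, was at 4269 to 4550 CPM on SD and 7259 to 8646 CPM on the HFHS diet in Balb/c. In C57Bl/6J it was at 2735 to 3864 CPM and 1917 to 2736 CPM (interaction 1.29, adjusted p = 0.0345; with the offset 0.18, adjusted p = 0.851). Its strain difference turned with the offset, from 1.06 ± 0.20, adjusted p = 0.000681 to -0.35, adjusted p = 0.0154. Cetn3, a centrosome protein, was at 314 to 369 CPM on SD and 611 to 809 CPM on the HFHS diet in Balb/c, and at 191 to 269 and 139 to 193 CPM in C57Bl/6J (interaction 1.48, adjusted p = 0.0345; with the offset 0.30, adjusted p = 0.79). Ints11, the RNA-cutting subunit of Integrator, ran the other way, at 68.7 to 143 CPM on SD and 27.5 to 28.2 CPM on the HFHS diet in Balb/c, and at 97.5 to 121 and 118 to 171 CPM in C57Bl/6J (interaction -2.125, adjusted p = 0.0345; with the offset -1.79, adjusted p = 0.0629).

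Set beside other populations of the second experiment, the count was high. In hypothalamic activated Tconv (8 libraries of each strain), 171 of 9416 genes (1.82%) passed, and in rest brain Tregs (6 Balb/c and 8 C57Bl/6J libraries) 31 of 8868 (0.350%). The test of the difference between tissues called 1419 of 10995 genes (12.9%), 751 with a higher value in the rest brain. With the pool as a block, in the 9 pools found in both tissues (18 of 29 libraries), it called 15. The test of the difference between activated Tconv and Tregs called 758 of 11029 genes (6.87%), 452 with a higher value in Tconv, and with the pool as a block in 12 pools (24 of 27 libraries) 268. With the offset these tests called 760 and 300. Pools with the same label were taken as the same mice, an inference that deviations of the libraries from their group means did not support (see the correlations below), and values of the populations are given side by side.

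Several genes differed between the strains in all 3 populations. Trim12a was at 0 to 0.107 CPM in the 8 Balb/c and 122 to 308.5 CPM in the 8 C57Bl/6J libraries of the hypothalamus, and at 0 CPM and 77.3 to 244 CPM in Tregs. H2-Q4 was at 167 to 325 CPM against 13.3 to 30.9 CPM in the hypothalamus and at 238.5 to 339 CPM against 15.03 to 60.3 CPM in Tregs. Pim1 was at 106 to 222 CPM against 10.6 to 26.1 CPM in the hypothalamus and at 334 to 737 CPM against 0 to 32.5 CPM in Tregs. Ly6e was at 687 to 1348 CPM against 2583 to 4923 CPM in the hypothalamus and at 247.5 to 870 CPM against 4833 to 7923 CPM in Tregs, and its difference was larger in Tregs than in rest brain Tconv (interaction 1.82, adjusted p = 6.59e-06). For Apobec3 the log2 fold changes were -3.56 in the rest brain Tconv, -2.50 in the hypothalamus and -3.45 in Tregs (interaction with tissue -1.12, adjusted p = 0.00335). For H2-K1 they were -1.34 in the rest brain Tconv, -0.86 in the hypothalamus and -0.88 in Tregs (interaction with tissue -0.49, adjusted p = 0.00326). Gbp2b passed in the hypothalamus (11.04, adjusted p = 2.73e-10) and not in Tregs (7.58, adjusted p = 0.699). In Tregs it was at 43.96 to 348.6 CPM in Balb/c and 0 to 36.7 CPM in C57Bl/6J, without overlap.

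Other genes differed in the rest brain Tconv and much less elsewhere. Their interactions are from the fits without the pool as a block, and which of them pass with it is not given here. With the block, 15 genes passed for tissue and 268 for cell type. Zap70 was at 153 to 270 CPM in Balb/c and 94.1 to 272 CPM in C57Bl/6J in the hypothalamus (interaction with tissue -1.41, adjusted p = 0.000545). For Lck the log2 fold changes were -0.91 in the rest brain Tconv, 0.18 in the hypothalamus and 0.24 in Tregs, with interactions of -1.13, adjusted p = 3.3e-06 for tissue and -1.16, adjusted p = 9.17e-05 for cell type. Pkm was at 538 to 860 CPM and 683 to 973 CPM in the hypothalamus and 1092 to 1537 CPM and 370 to 1889 CPM in Tregs (interactions -1.71, adjusted p = 3.3e-06 and -2.04, adjusted p = 0.000386). Uqcr10 differed between tissues as well (interaction 1.39, adjusted p = 4.33e-05; in the hypothalamus, 0.22, adjusted p = 0.764). The smallest adjusted p of the tissue test belonged to Arhgdia, a brake on small GTPases of the cytoskeleton, at 137 to 358 CPM (median 196) in Balb/c and 554 to 718 CPM (median 623) in C57Bl/6J in the rest brain and at 629 to 761 CPM and 566 to 945 CPM in the hypothalamus (-1.635, adjusted p = 1.6e-07). Coro1a, a coronin that T cells need to survive, was at 376 to 993 CPM (median 616) in Balb/c and 1631 to 2203 CPM (median 1821) in C57Bl/6J in the rest brain and at 1874 to 2515 CPM and 2175 to 2753 CPM in the hypothalamus (-1.46, adjusted p = 2.9e-07). The interferon-inducible GTPase gene 9930111J21Rik1, with 88.3% of its words shared, was at 10.3 to 88.96 CPM (median 18.6) in Balb/c and 249 to 379.5 CPM (median 300.2) in C57Bl/6J in the rest brain and at 176.5 to 451.5 CPM and 134 to 370 CPM in the hypothalamus (-3.91, adjusted p = 2.9e-07). The GC trend was found in the rest brain Tconv, and its part in these interactions was tested only by the offset counts above.

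**Figure D4:**
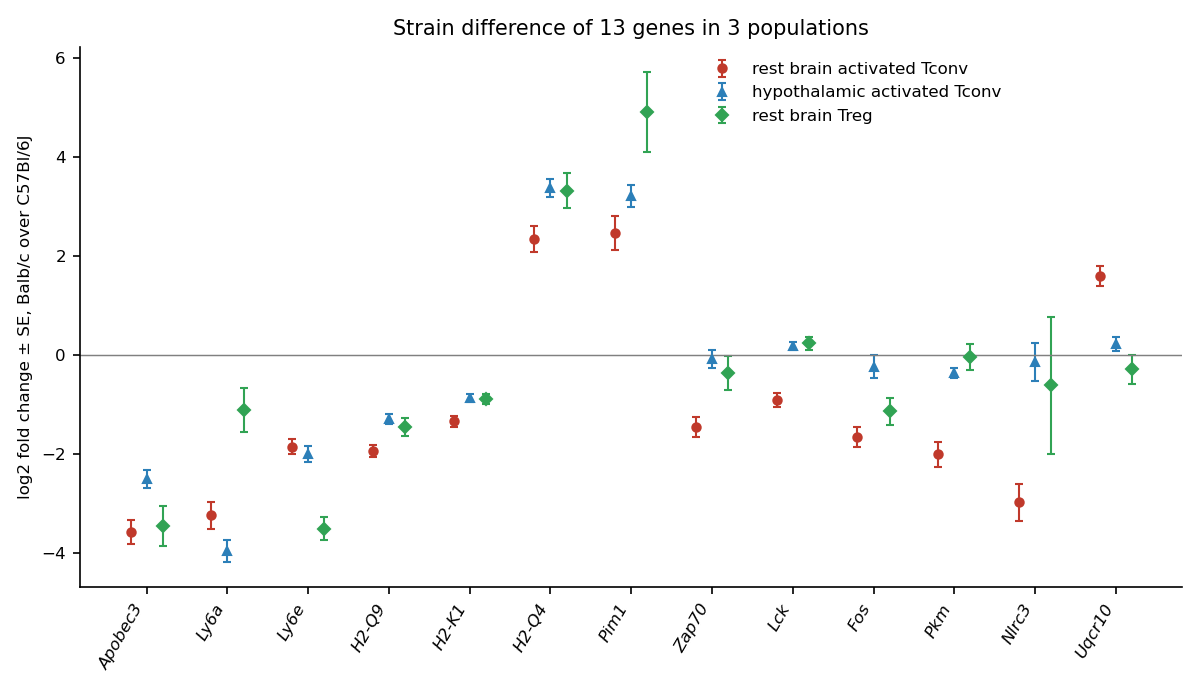
Log2 fold change of Balb/c over C57Bl/6J with its SE for 13 genes in rest brain activated Tconv, hypothalamic activated Tconv and rest brain Tregs. From Apobec3 to Pim1 the points of the 3 populations lie on the same side of 0, and from Zap70 to Uqcr10 those of the rest brain activated Tconv lie farthest from 0.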

How the data were processed

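The deposited estimated counts were made by the authors with nf-core/rnaseq 3.16 and Salmon against mouse reference mm10, from SMARTer mRNA+LP libraries read as 100-base pairs on a NovaSeq X Plus. The deposited TPM values and effective lengths, which Salmon computed within each library according to the authors' pipeline, were used in no main test. Of 35034 RefSeq names, 34652 (98.91%) matched a gene, and counts were summed over the names of each gene to 24164 features. The 1099 features on chromosomes X and Y were left out before normalization, and 23065 remained. Rounded sums were tested with edgeR 4.0.16 (TMM, quasi-likelihood F test, strain and diet as terms) in genes that passed 10 counts in 6 or more libraries, and p values were adjusted by Benjamini and Hochberg over all genes tested, with 0.05 as threshold. Counts alone cannot show a change of total RNA per cell.

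The members and gene lists were chosen with earlier results of these data known. Genes were picked by rule, as the largest called changes without overlap of strains and with a mean of at least 10 CPM in the higher strain, up to 4 called members per direction of each list with the smallest adjusted p, markers of the sort, up to 5 genes per interaction, and members of the longest runs. The text names a subset of these, chosen after the values were seen. Chosen after seeing the data were also the offset for GC content and length (splines with 4 degrees of freedom per library, GC values for 98.1% of genes tested), the Cd8 term, the left-out pair of libraries, the promoters and their motif, and the omission of H2-Q8 and H2-Q9 from the runs. Shared words were counted in GENCODE M21 transcripts.

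Pools with the same label and strain in different tissues or cell types were taken as cells of the same mice, an inference from the labels. Deviations of such libraries from their group means correlated at -0.02 to 0.03 between tissues (9 pools) and at -0.002 to 0.104 between cell types (12 pools, 1 over 0.1).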

Additional observations from a re-analysis of the deposited data

Results flagged for a closer look

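Libraries far from the others of their strain were sought in 70 groups of values with Dixon's test, which by chance marks about 1 group in 20, and 25 were found. In Balb/c, these were the pool 47_25 for Bcl2l15 (99.6 CPM), Coro2a (2.45 CPM) and the macrophage, monocyte and neutrophil genes (527 CPM), and the pool 16_20 for Scg5 (273 CPM), Trim12a (0.0696 CPM) and Zfp775 (2.37 CPM). The pool 37_41 stood apart for Oasl2 (1.03 CPM) and Trim30d (8.72 CPM), and 15_21 for the gamma-delta T cell genes (6.16 CPM). In C57Bl/6J, these were the pool 01_05 for Ifi202b (0.110 CPM) and Gm8979 (1.15 CPM), 11_15 for Lhfpl3 (0.214 CPM), 38_42 for Pianp (0.402 CPM), 77_80 for Tmem181c-ps (6.35 CPM) and 33_37 for Mtus1 (3.42 CPM). The pool 62_66 stood apart for the neuron genes (4.21 CPM) and erythroid genes (3.37 CPM).

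The Balb/c SD pool 42_46 stood apart for microglia (937 CPM), neuron (124 CPM), astrocyte (124 CPM) and NK cell genes (298 CPM). The C57Bl/6J SD pool 11_15 did so for astrocyte (24.2 CPM), B cell (114 CPM) and gamma-delta T cell genes (23.6 CPM), and the C57Bl/6J SD pool 01_05 for the CD8 genes (745 CPM). Of the 23.6 CPM, 23.4 CPM were Blk, which is also in the B cell list. The paper describes a magnetic removal of CD11b positive brain cells and a gate on CD4 T cells that left out cells with B220, CD8a, CD11b, CD11c, CD14 or F4/80, which mark B cells, CD8 T cells, microglia and other myeloid cells. How their transcripts came into these libraries was not tested. Without the pools 42_46 and 01_05, 2772 genes were called against 2711.

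Strain differences that depended on diet were marked as differences between groups, with the largest evidence for Pdcd4 (1.255), Cd52 (1.29), Cetn3 (1.48), Ints11 (-2.125) and B2m (1.12) on the log2 scale. Those that depended on tissue were Arhgdia (-1.635), Coro1a (-1.46), 9930111J21Rik1 (-3.91), Pld3 (-2.13) and Dok2 (-1.60). Those that depended on cell type were Ppia (1.55), B2m (1.28), AW112010 (1.67), Cd52 (1.78) and Coro1a (-1.51). With the GC and length offset, none of the 5 diet interactions passed the threshold. Their values were then 0.94 for Pdcd4, 0.18 for Cd52, 0.30 for Cetn3, -1.79 for Ints11 and -0.30 for B2m. B2m, Cd52 and AW112010 turned direction in the rest brain with the GC and length offset. A trend with GC content and length in the rest brain Tconv libraries and a difference of these T cells could each give interactions of this kind, and strain goes with both, so they cannot be told apart here.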

How the results depend on the processing

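Under the 30 alternative settings, the strain comparison of rest brain activated Tconv called 307 to 3346 genes against 2711. DESeq2 gave 3346, limma-voom 3147, library totals only 2860 (951 higher, 1909 lower), a filter on total counts 2832, a filter on 3 libraries 2768, filterByExpr 2701, no diet term 2742, chromosomes X and Y in the normalization 2709, a length offset 2698, DESeq2 size factors 2692 and genes with a single transcript name 1846 of 7141. Leaving out each library in turn gave 2298 to 2799. The count moved with SD libraries alone (782, with 7 of 13 libraries), HFHS libraries alone (2152, with 6 of 13) and the Cd8a and Cd8b1 level as a term (307). With the GC content and length offset it was 1911, without the pools 42_46 and 01_05 2772, and with both changes 1962. No paired analysis was possible because the strains share no pools. Genes with few counts in the Balb/c library of lowest depth (11340062 counts) are the least certain.

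Strain by diet (151) moved to 592 in DESeq2, 40 with a filter on total counts and 16 with the GC content and length offset. Hypothalamic Tconv (171) gave 338 in DESeq2, 191 and 196 with the last 2, and Tregs (31) 105, 30 and 31. Strain by tissue (1419) gave 1964 in DESeq2, 1158 with a filter on total counts, 760 with the offset and 15 with the replicate block, which used 18 of 29 libraries. Strain by cell type (758) gave 1960, 527 and 300, and 268 with the replicate block, which used 24 of 27 libraries. The cause of these moves was not tested.

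Of 148 genes followed through the settings, 142 were called. All 142 kept call and direction with DESeq2 size factors, filterByExpr, a length offset, a filter on 3 libraries and chromosomes X and Y in the normalization, 141 in DESeq2, limma-voom and the filter on total counts, 140 with no diet term, 138 with library totals only, and 139 to 142 with each library left out. With HFHS libraries alone 128 kept it, with SD libraries alone 101 and with the Cd8 term 68. With the offset 117 kept it, 21 lost it and 4 turned, and without the pools 42_46 and 01_05 as well 121, 16 and 5. Genes with a single transcript name kept all 101. The medians of 11 lists were followed through the 30 settings, and 296 of these values stayed, 34 moved by the rule used and none turned. Of the lists not followed, the medians of cytokines (0.43 to -0.31), chemokines (0.77 to -0.18), chemokine receptors (0.30 to -0.18), Ifi200 genes (0.21 to -0.15), costimulation (0.15 to -0.09), naive and egress genes (0.25 to -0.00283), S phase genes (0.34 to -0.01), IL-2 and STAT5 genes (-0.25 to 0.02) and macrophage, monocyte and neutrophil markers (0.21 to -0.14) changed sign with the offset.

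Turned by the GC content and length offset were AW112010 (-0.57), B2m (-0.72), Cd2 (-0.48, adjusted p = 0.00283), Cd52 (-0.35) and Il4 (-0.18). Without the pools 42_46 and 01_05 as well, these were AW112010 (-0.57), B2m (-0.73), Brd2 (0.0671), Cd2 (-0.50, adjusted p = 0.00746), Cd52 (-0.38) and Il4 (-0.56). Cd2, not called in the main test, thus passed the threshold in both. The Cd8a and Cd8b1 level as a term turned Cd2 (-0.0795), Cd44 (0.0272) and Cd8a (-0.57). Cd44 and Cd2, near 0 in the main test, turned in other settings too, without passing. Cd44 was 0.0276 in the DESeq2 Wald test and 0.0276 with DESeq2 size factors in edgeR, 0.0421 in limma-voom with sample quality weights and 0.11 with HFHS libraries alone. Cd2 was -0.16 with library totals only and -0.24 with SD libraries alone. With each library left out, Cd2 ranged from -0.0515 (33_37) to 0.13 (38_42) and Cd44 from -0.11 (47_25) to 0.14 (62_66). The cause was not tested.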
